A study of Homo sapiens with 6 samples.

Results

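Integrins, laminins and the proteins of the focal adhesion plaque were examined in H1299 cells with and without Ephexin1 knockdown. The genes were chosen by name and function. They comprise the integrin alpha and beta subunits, the laminin chains, the nidogens, focal adhesion kinase and its scaffolds, and the proteins that tie integrins to actin. The rule found 59 genes among the 26255 genes listed.

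H1299 is a human lung cancer cell line that was grown from a lymph node metastasis. The study compared 3 libraries of cells carrying a control shRNA (shControl) with 3 libraries of cells carrying an shRNA against Ephexin1 (shEphexin1). Both shRNAs were expressed from a pSilencer2.1-U6 plasmid and the cells were drug-selected as stable clones. The labels name the neo form of the plasmid and the methods the hygro form, so the drug is not settled. The names of the shEphexin1 libraries share the stem shB2-3, so they could stem from 1 clone, and nothing states that the libraries came from separate cultures. The p values then measure only the spread between these libraries, and a difference between clones cannot be told apart from an effect of the shRNA.

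Integrins are cell surface receptors made of an alpha and a beta subunit, and the pair decides which matrix protein is bound. Laminins are secreted trimers of an alpha, a beta and a gamma chain that build the basement membrane together with nidogens. On the inner side of the membrane, talins and kindlins activate the integrin, vinculin and zyxin reinforce the link to actin under tension, and focal adhesion kinase (PTK2), Src, paxillin and p130Cas (BCAR1) carry the signal. The pathway is known for its part in the spreading, migration and anchorage of carcinoma cells.

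Expression is given as FPKM, the fragments of a transcript scaled to its length and to the library size, as the authors calculated it for each gene and library. The relative depth of the libraries, estimated from low FPKM values, was 66.7% to 100% of the deepest. The filter for testing was 0.1 FPKM in 3 or more libraries, and the genes that passed were 46 of the 59 genes and 16020 genes in all. Differences were tested on log2(FPKM + 0.1) with limma, and a gene was called at an adjusted p of at most 0.025 with a fold difference of at least 2. Of all genes tested, 1.89% were called in either direction, 0.893% as higher and 0.999% as lower in shEphexin1. NGEF, which encodes Ephexin1, was at 13.3, 11.7 and 16.4 FPKM under shControl versus 9.81, 8.24 and 10.5 under shEphexin1. The targeted mRNA was thus lower in every shEphexin1 library, by 0.53 on the log2 scale, and did not pass the test (standard error, SE, 0.163, limma adjusted p = 0.103). The paper reports a check of its knockdown clones at the protein level by western blot. Replicate 2 of both groups stood apart in the direction of its dependence on GC content. Across genes, its deviation from the group mean correlated negatively with GC content (Spearman's rho of -0.688 in shControl and -0.759 in shEphexin1). In the same order, rho was 0.336 and 0.469 for replicate 1 and 0.638 and 0.664 for replicate 3. Deviations from a shared mean balance out, so these correlations depend on each other. Values are therefore also given for replicate 2 and for replicates 1 and 3 apart. For NGEF the log2 difference was -0.50 within replicate 2 and -0.54 within replicates 1 and 3 (limma adjusted p = 0.0338). Its adjusted p was 0.00572 with a model term for replicate 2 and 0.00160 after GC and length correction. NGEF stayed under a 2-fold difference in each.

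The cells had the marker profile of a mesenchymal line. VIM, the intermediate filament of mesenchymal cells, was between 1979 and 2670 FPKM, while the epithelial cadherin CDH1 and the lung lineage factor NKX2-1 were listed at 0 in every library and EPCAM reached no more than 0.22 FPKM. The summed level of the 5 epithelial markers was 72.8 to 118.1 FPKM in shControl and 39.2 to 58.4 FPKM in shEphexin1, mostly from KRT18. The part of this difference in the adhesion genes was not tested. The fibroblast and endothelial marker lists summed to less than 0.89 FPKM in every library.

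Of the 46 adhesion genes tested, 3 rose in shEphexin1 (6.52%, against 1.89% of all genes called) and 0 fell by limma, where 3 were lower at an unadjusted p of at most 0.05. The 3 genes were LAMB1, TNS1 and ITGB2. ITGB2 passed the filter only through shEphexin1, the group where it is high, so the share is a description. The other 43 genes did not pass, and 42 of the 46 differed by less than 2-fold. Without the fold threshold the same number passed at an adjusted p of 0.025, 3 higher and 0 lower (all genes 3.41%, 1.25% higher and 2.15% lower). At an adjusted p of 0.05 it was 6 higher and 0 lower (all genes 7.01%, 2.69% higher and 4.32% lower). At an unadjusted p of 0.05 it was 12 higher and 3 lower, or 32.6% (all genes 23.3%, 10.5% higher and 12.8% lower). Libraries of the groups were fully separate for 19 genes, or 41.3%, with 15 higher and 4 lower in shEphexin1 (all genes 28.3%, groups not overlapping with 12.8% higher and 15.4% lower). The median log2 fold change of the 46 genes was 0.14, and that of all genes tested was -0.0093.

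With a model term for replicate 2, an adjusted p of 0.025 was reached by 19 genes (41.3%), 15 higher and 4 lower (all genes 21.7%, 8.59% higher and 13.1% lower), and 4 were called (all genes 3.52%). With the replicate number as a block, 4 were called (all genes 3.47%).

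**Figure D1:**
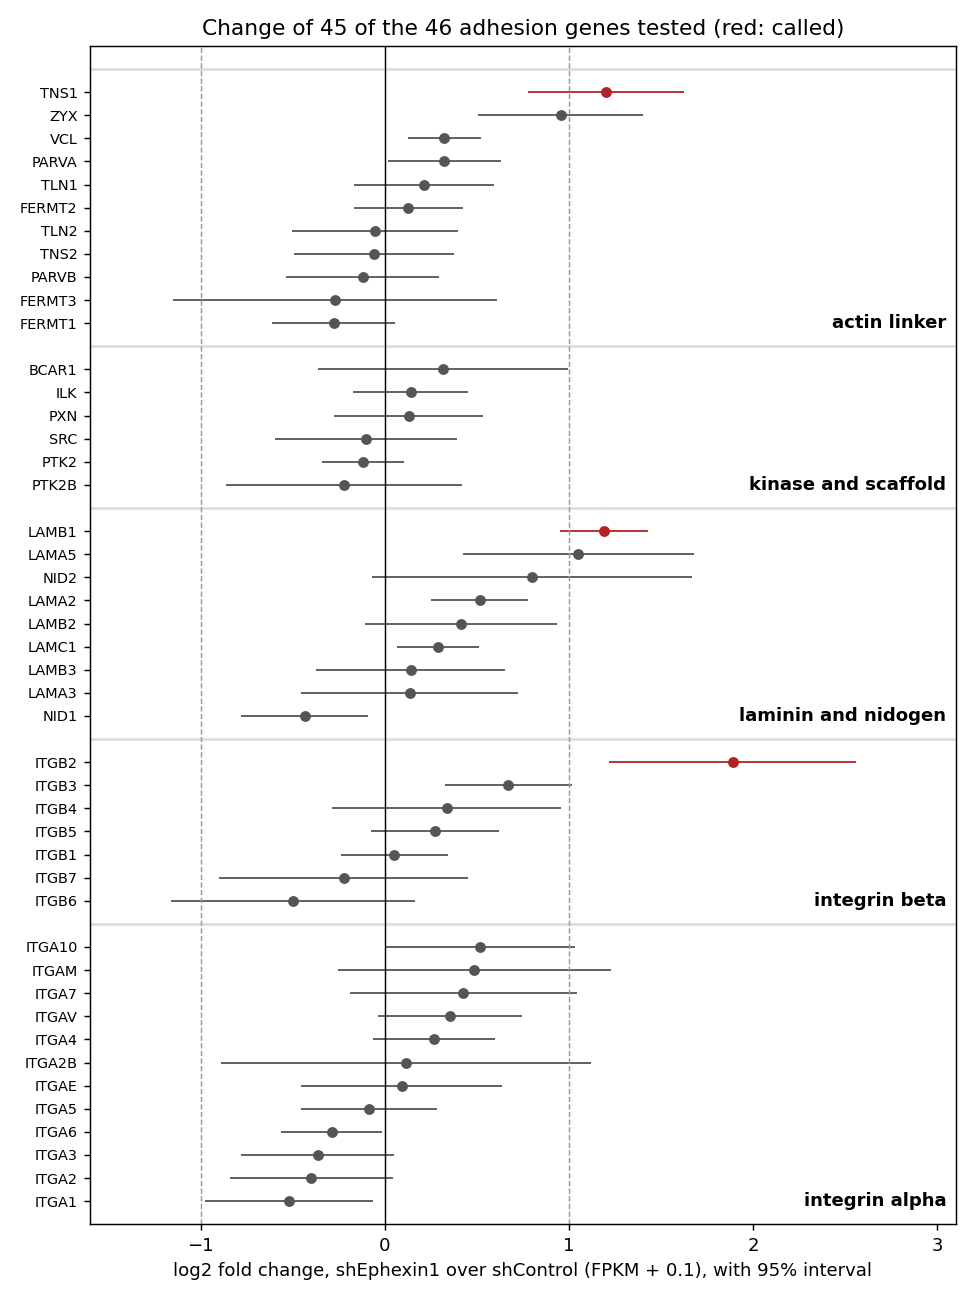
Log2 fold change of 45 of the 46 adhesion genes tested (shEphexin1 over shControl, n = 3 libraries in each group) with its 95% interval from limma, by class. Dashed lines mark a 2-fold difference, and the genes called (LAMB1, TNS1 and ITGB2) are in red, all to the right of 0.

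Of the 12 laminin chains listed, 8 were tested, and all 8 had a positive log2 fold change (0.14 to 1.19), as had 7835 of all 16020 genes. LAMA3 and LAMB3 were within their errors of 0, at 0.135 (SE 0.251) and 0.140 (SE 0.219). After GC and length correction they were at 0.0078 and 0.039. Of the 8 chains, LAMB1 alone was called. LAMB1 encodes the beta1 chain that is found in most laminins. It was at 11.8, 12.1 and 12 FPKM under shControl versus 28.0, 25.9 and 28.6 under shEphexin1. The groups were far apart and each was tight, with means of 11.97 ± 0.143 and 27.5 ± 1.40 FPKM (SD, n = 3 in each group). The log2 fold change was 1.19 (SE 0.102, limma adjusted p = 0.00168). It was 1.09 within replicate 2 and 1.24 within replicates 1 and 3 (adjusted p = 0.00150).

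LAMB1 lies on the minus strand of chromosome 7 (GRCh37, 107564244 to 107643658). The median log2 fold change of the expressed genes within 10 Mb of it was 0.30. With that local median subtracted in each library, LAMB1 was still higher by 0.89 on the log2 scale (adjusted p = 0.00229), but no longer 2-fold, so the call was lost. LAMB1 was called with each library left out in turn, with adjusted p values from 0.00363 to 0.0242.

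LAMA5 encodes the alpha5 chain of the laminins of mature basement membranes. It was at 8.44, 5.79 and 9.36 FPKM under shControl versus 18.0, 11.2 and 20.6 under shEphexin1. Every shEphexin1 library was above every shControl library, but replicate 2 was the lowest of each group. The log2 fold change was 1.05 (SE 0.268), and LAMA5 was not called (limma adjusted p = 0.0615). Within replicates 1 and 3 it was called (log2 fold change 1.11, adjusted p = 0.00388), and within replicate 2 the log2 difference was 0.94. LAMA5 has the highest GC content of the 46 genes (66.4%). With GC and length effects removed in every library its log2 fold change was 0.69 (adjusted p = 0.000349), under the 2-fold threshold. LAMA5 was also called with a term for replicate 2 (adjusted p = 0.000316), with the replicate block, and with the neighbours on chromosome 20 subtracted (log2 fold change 1.31, adjusted p = 0.00547).

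LAMA2, the alpha2 chain known from muscle and nerve basement membranes, was at 6.77, 7.40 and 6.94 FPKM under shControl versus 9.71, 10.5 and 10.1 under shEphexin1. Its log2 fold change of 0.52 was larger than the spread of either group (SE 0.113, limma adjusted p = 0.0402). LAMC1, the gamma1 chain shared by most laminins, was at 29.8, 28.9 and 31.2 FPKM under shControl versus 37.6, 35.5 and 36.7 under shEphexin1 (log2 fold change 0.29, SE 0.0949, limma adjusted p = 0.123). For both chains the groups did not overlap, and neither was called.

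LAMB2 and LAMB3, the beta chains with the highest means, overlapped between the groups. LAMB2 was at 33.4, 24.9 and 36.9 FPKM under shControl versus 44.5, 31.2 and 52.5 under shEphexin1 (log2 fold change 0.41, SE 0.223, limma adjusted p = 0.322). LAMB3 and LAMA3 are known from the laminin of epithelial anchoring complexes. LAMB3 had means of 27.2 and 30.1 FPKM in shControl and shEphexin1, and LAMA3 had means of 0.972 and 1.09 FPKM. LAMB1 was above LAMB3 in shEphexin1 replicate 2. LAMA3 lies on chromosome 18 among genes with a median log2 fold change of -0.49.

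The summed FPKM of the alpha chains was 16.3, 14 and 17.4 in shControl and 29.1, 22.5 and 32.0 in shEphexin1, a ratio of means of 1.75. For the beta chains the sums were 73.1, 58.3 and 81.4 against 103.3, 79.8 and 118.0, which overlapped between the groups (ratio 1.42), with replicate 2 the lowest of each. LAMB1 made up 16.2%, 20.8% and 14.7% of the beta chain FPKM in shControl and 27.1%, 32.5% and 24.2% in shEphexin1, and LAMB3 38.2% ± 1.77 and 29.9% ± 1.41 (SD, n = 3 in each group). The alpha sum and both shares gave p = 0.1 and the beta sum gave p = 0.2 in a two-sided exact permutation test, where 0.1 is the smallest p that 3 libraries against 3 allow. In all, 27 sums and shares of integrins and laminins were compared in this way, and none could reach 0.05.

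**Figure D2:**
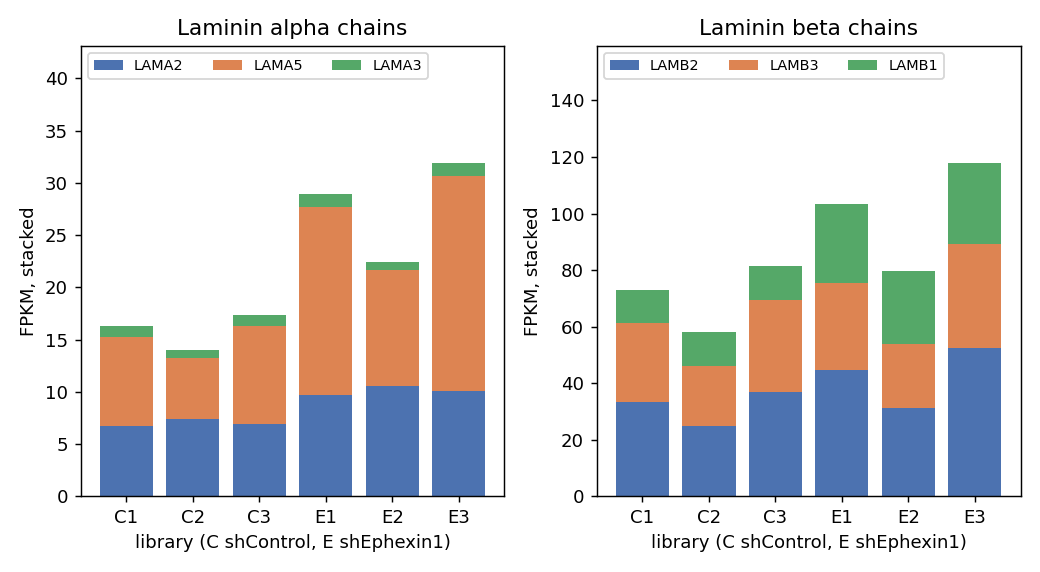
FPKM of the laminin alpha and beta chains stacked for each library (C1 to C3 shControl, E1 to E3 shEphexin1, chains under the filter left out). The LAMB1 part of the beta chain bar is 11.8 to 12.1 FPKM in every shControl library and 25.9 to 28.6 FPKM in every shEphexin1 library.

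Both nidogens, which bridge laminin and collagen IV, were low. NID1 was at 4.32, 4.17 and 4.75 FPKM under shControl versus 3.38, 2.83 and 3.52 under shEphexin1, the only one of the 10 laminin and nidogen genes tested with a negative log2 fold change (-0.43, SE 0.148, limma adjusted p = 0.132). NID2 was at 0.161, 0.221 and 0.0802 FPKM under shControl versus 0.283, 0.231 and 0.530 under shEphexin1 (adjusted p = 0.249), which is about 3.6 to 10.8 and 13.9 to 23.3 fragments in a library. These fragment numbers were estimated from the steps between low FPKM values. LAMA1, LAMA4, LAMB4 and LAMC3 were under the filter. LAMA4 was at 0.0107, 0.0249 and 0.0127 FPKM under shControl versus 0.183, 0.0514 and 0.0388 under shEphexin1, from about 1 or 2 fragments against 2.5 to 13.4, and LAMA1 was listed at 0 in every shEphexin1 library and rested on about 1 or 2 fragments in each shControl library.

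Windows around the transcription starts are shown for LAMB1, LAMA5 and ZYX, 3 of the genes with the largest differences, all higher in shEphexin1. Of these 3, LAMB1 alone was called in the reported fit. TNS1 and ITGB2, which were called and also rose, are not shown, and no window was available for ITGB2. The 3 windows therefore do not stand for the genes that rose. Those shown are RefSeq windows of 300 bases, 250 before and 50 after the start. Each was read along the transcribed strand and placed on GRCh37 by a single exact match. Capitals mark each GC box, the motif GGGCGG bound by Sp1-type factors, in either orientation, with overlapping matches merged. The LAMB1 window is chr7:107643557-107643856 on the minus strand, the LAMA5 window is chr20:60942319-60942618 on the minus strand and the ZYX window is chr7:143078188-143078487 on the plus strand.
LAMB1: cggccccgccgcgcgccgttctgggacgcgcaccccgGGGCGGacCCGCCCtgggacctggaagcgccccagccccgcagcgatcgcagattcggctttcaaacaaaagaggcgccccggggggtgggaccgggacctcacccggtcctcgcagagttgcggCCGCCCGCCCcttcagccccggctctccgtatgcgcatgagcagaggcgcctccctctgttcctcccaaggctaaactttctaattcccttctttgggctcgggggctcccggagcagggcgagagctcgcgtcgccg
LAMA5: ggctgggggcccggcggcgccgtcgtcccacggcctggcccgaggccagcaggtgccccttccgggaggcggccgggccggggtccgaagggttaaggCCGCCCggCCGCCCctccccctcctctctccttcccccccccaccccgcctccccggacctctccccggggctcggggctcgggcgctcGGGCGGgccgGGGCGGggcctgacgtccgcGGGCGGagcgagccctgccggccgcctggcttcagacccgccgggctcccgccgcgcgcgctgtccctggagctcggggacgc
ZYX: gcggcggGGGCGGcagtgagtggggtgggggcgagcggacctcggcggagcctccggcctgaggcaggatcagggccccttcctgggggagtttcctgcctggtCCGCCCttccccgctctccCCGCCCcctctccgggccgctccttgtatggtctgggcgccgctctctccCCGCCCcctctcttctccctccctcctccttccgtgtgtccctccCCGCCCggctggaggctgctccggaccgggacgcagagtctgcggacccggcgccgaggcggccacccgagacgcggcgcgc
The windows hold 4, 5 and 5 GC boxes and have GC contents of 71%, 82.7% and 76%, where the median of all windows was 58.7%. A GC box was found in 44.9% of the 34796 distinct windows and in 39 of the 63 windows (61.9%) matched to 41 of the 59 adhesion genes. The AP-1 motif TGANTCA and the TEAD core CATTCC, searched on both strands, were in none of the 3 windows, and were in 7.73% and 14% of all windows and in 7.94% and 12.7% of those of the adhesion genes. At such shares 3 windows are too few to show a lack of either motif.

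Among the integrin beta subunits, ITGB1 was by far the highest and did not pass the test. ITGB1 encodes beta1, the partner of most alpha subunits. It was at 528.6, 594.1 and 503.1 FPKM under shControl versus 544.4, 640.4 and 504.7 under shEphexin1 (log2 fold change 0.052, limma adjusted p = 0.855, 95% interval -0.24 to 0.34, and 0.41 with quantile normalization). It held between 90.96% and 95.02% of the summed beta subunit FPKM in every library. ITGB5, a partner of alphaV, was next with 28.4, 23.7 and 32.3 FPKM under shControl versus 35.8, 29.7 and 36.1 under shEphexin1 (log2 fold change 0.27, SE 0.148, limma adjusted p = 0.325). ITGB4, the partner of alpha6 in hemidesmosomes, had means of 5.79 and 7.44 FPKM and overlapped between the groups.

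ITGB3, the other main partner of alphaV and the beta subunit of the platelet integrin, was at 1.92, 1.75 and 1.96 FPKM under shControl versus 3.19, 2.83 and 3.11 under shEphexin1. The groups did not overlap, and the log2 fold change was 0.67 (SE 0.148, limma adjusted p = 0.0402). ITGB3 was not called. Its log2 difference was 0.66 within replicate 2 and 0.67 within replicates 1 and 3 (adjusted p = 0.0337). The expressed genes within 10 Mb of ITGB3 on chromosome 17 had a median log2 fold change of -0.22, and with that subtracted its own was 0.89 (adjusted p = 0.00993).

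ITGB2 encodes the beta2 subunit of the leukocyte integrins. It was at 0.0621, 0.0281 and 0.0415 FPKM under shControl versus 0.403, 0.382 and 0.515 under shEphexin1, so all shEphexin1 libraries were higher. It was called as higher (log2 fold change 1.89, SE 0.287, limma adjusted p = 0.0138), on the log2(FPKM + 0.1) scale that understates changes of low genes. All shControl values were under the 0.1 FPKM of the filter, which ITGB2 met through the shEphexin1 libraries alone, so a gene let in this way had to differ. The shControl values rest on about 1.9, 0.8 and 1.1 fragments and the shEphexin1 values on about 11.4, 14.5 and 13. The call was lost with any one library left out (adjusted p from 0.0285 to 0.0751) and with a pseudocount of 1 FPKM (log2 fold change 0.46). The leukocyte markers PTPRC, CD3E and SPI1 and the platelet gene PF4 were listed at 0 in every library. The 7 leukocyte and platelet markers summed to 0.987 to 1.51 FPKM in shControl and 1.21 to 1.36 FPKM in shEphexin1, mostly from GP1BA. The alpha partners of beta2 were all low: ITGAM was at 0.0547, 0.0891 and 0.140 FPKM under shControl versus 0.184, 0.168 and 0.154 under shEphexin1 (adjusted p = 0.414), and ITGAL, ITGAX and ITGAD were under the filter with at most 3 fragments in a library.

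ITGB6 and ITGB7, epithelial and leukocyte subunits, had mean levels of 0.436 and 0.738 FPKM under shControl versus 0.290 and 0.641 under shEphexin1 and did not pass. ITGB8 was under the filter, at 0.0753 to 0.199 FPKM.

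Of the 18 integrin alpha subunits, 12 were tested and 0 were called by limma. An unadjusted p of at most 0.05 was reached by 3 of them, ITGA1 and ITGA6 (lower) and ITGA10 (higher). This share of 25% was near the 23.3% of all genes tested. The 2 highest were the laminin receptors. ITGA3 was at 321.1, 267.3 and 364.3 FPKM under shControl versus 258.2, 195.3 and 290.2 under shEphexin1 (log2 fold change -0.36, SE 0.177, adjusted p = 0.272). The shEphexin1 value was the lower one of each replicate number, but the groups overlapped. The expressed genes within 10 Mb of ITGA3 on chromosome 17 had a median log2 fold change of -0.30, and with that subtracted ITGA3 was at -0.061 (adjusted p = 0.788). After GC and length correction it was at -0.53 (adjusted p = 0.000745). With a term for replicate 2 its adjusted p was 0.00938. The log2 difference was -0.45 within replicate 2 and -0.32 within replicates 1 and 3 (adjusted p = 0.0689).

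ITGA6 was at 145.4, 165.3 and 143.4 FPKM under shControl versus 120.4, 139.2 and 112.8 under shEphexin1 (log2 fold change -0.29, SE 0.117, limma adjusted p = 0.194). All shEphexin1 libraries were below all shControl libraries. With the neighbours on chromosome 2 subtracted, its log2 fold change was -0.32 (adjusted p = 0.0319). ITGA1, a collagen receptor, was at 4.74, 6.87 and 5.07 FPKM under shControl versus 3.58, 4.56 and 3.34 under shEphexin1 (log2 fold change -0.52, SE 0.195, adjusted p = 0.165), again without overlap. ITGA2, the other main collagen receptor of epithelial cells, had a log2 fold change of -0.40 (SE 0.189) and overlapped between the groups.

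ITGA10, a collagen receptor known from cartilage, was at 0.683, 0.685 and 0.591 FPKM under shControl versus 0.861, 0.871 and 1.24 under shEphexin1 (log2 fold change 0.52, SE 0.221, limma adjusted p = 0.213). The fibronectin and vitronectin receptors were in the middle of the range. ITGAV had means of 22.4 and 28.7 FPKM, ITGA4 had 20.4 and 24.6 FPKM, and ITGA5 had 24.2 and 22.7 FPKM in shControl and shEphexin1, and their log2 fold changes of 0.35, 0.27 and -0.087 did not pass. In the order of levels in shControl, ITGA3 and ITGA6 did not overlap with each other or with any other alpha subunit, while ITGA5, ITGAV and ITGA4 overlapped among themselves. The summed FPKM of all alpha subunits was 543.6, 515.5 and 586.5 in shControl and 462.5, 429.0 and 485.2 in shEphexin1 (ratio of means 0.837, two-sided exact permutation p = 0.1, the smallest possible). The summed beta subunits gave 579.1 ± 41.3 in shControl and 609.0 ± 63.7 in shEphexin1 (FPKM, SD, n = 3 libraries, exact permutation p = 0.6).

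**Figure D3:**
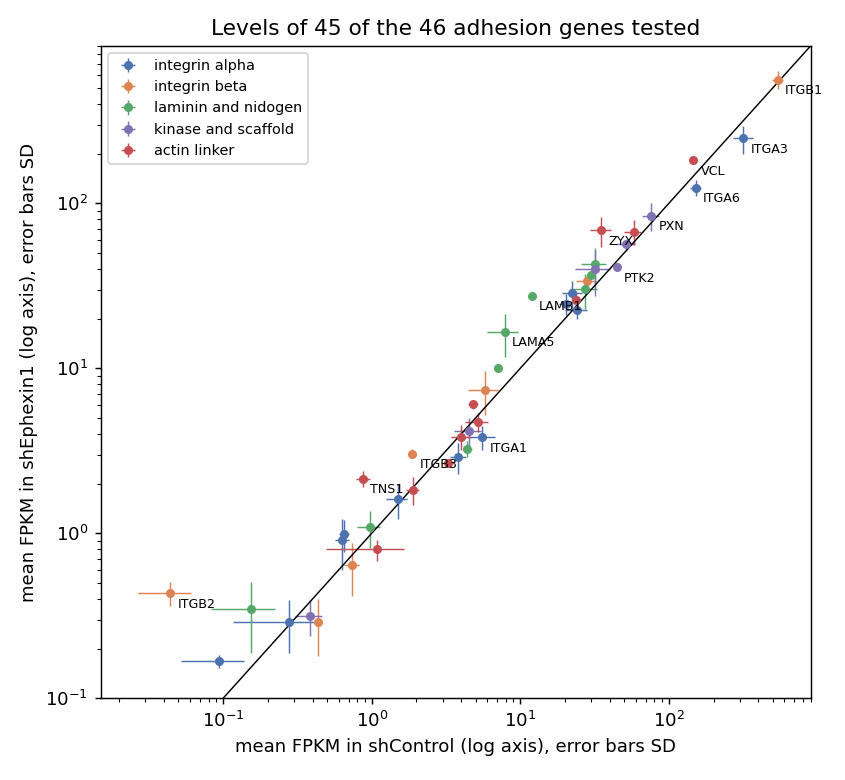
Mean FPKM of 45 of the 46 adhesion genes tested in shEphexin1 against shControl on log axes, with SD over 3 libraries in each group and the line of equal level. ITGB1, ITGA3, VCL and ITGA6 lead in both groups, and ITGB2, TNS1, LAMB1, NID2 (unlabelled), LAMA5 and ZYX lie farthest above the line.

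The remaining alpha subunits were scarce. ITGAE, ITGA7 and ITGA2B, of intraepithelial lymphocytes, muscle and platelets, were tested and did not pass. ITGA8 was listed at 0 in every library, and ITGA9 and ITGA11 were under the filter. ITGA11 was at 0, 0.0147 and 0 FPKM under shControl versus 0.0687, 0.0342 and 0.0661 under shEphexin1, or about 1.5 fragments in a single library against 4.7 to 7.1 in each.

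Among the proteins that tie integrins to actin, TNS1 rose. TNS1 encodes tensin 1, which binds the beta subunit tail and actin in mature fibrillar adhesions. It was at 0.815, 0.829 and 0.986 FPKM under shControl versus 2.26, 1.87 and 2.31 under shEphexin1. Every shEphexin1 library was above every shControl library. The log2 fold change was 1.20 (SE 0.181, limma adjusted p = 0.0136), 1.09 within replicate 2 and 1.26 within replicates 1 and 3 (adjusted p = 0.0122). The call was lost in 5 of the 6 fits that leave out 1 library (adjusted p up to 0.0838) and after GC and length correction (log2 fold change 0.98). The other tensins differed from it in level: TNS2 had means of 4.02 and 3.86 FPKM (log2 fold change -0.060), TNS3 was listed at 0 in every shEphexin1 library and rested on about 1 or 2 fragments in shControl, and TNS4 was above 0 in 1 shControl library only.

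ZYX encodes zyxin, a LIM protein that is recruited to adhesions and stress fibres under tension. It was at 35.3, 29.2 and 40.8 FPKM under shControl versus 74.2, 52.3 and 79.4 under shEphexin1. The groups did not overlap, with means of 35.1 ± 5.80 and 68.6 ± 14.4 FPKM (SD, n = 3 in each group). The log2 fold change was 0.95 (SE 0.192, limma adjusted p = 0.0324), just short of both thresholds. Within replicates 1 and 3 it was 1.01 and ZYX was called (adjusted p = 0.00328), and within replicate 2 it was 0.84. ZYX lies on the plus strand of chromosome 7 (143078388 to 143088204), where the expressed genes within 10 Mb had a median log2 fold change of 0.31. With that subtracted, its log2 fold change was 0.65 (adjusted p = 0.0328).

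VCL, which encodes vinculin, was the highest of the actin linkers. It was at 146.3, 145.2 and 146.7 FPKM under shControl versus 185.3, 176.7 and 186.5 under shEphexin1. The difference was small but far larger than the spread, at 0.32 on the log2 scale (SE 0.0853, limma adjusted p = 0.0665). The expressed genes within 10 Mb of VCL on chromosome 10 had a median log2 fold change of -0.27, and with that subtracted its log2 fold change was 0.60 (adjusted p = 0.00610).

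TLN1, the talin of most adhesions, had the second highest mean of the actin linkers over all libraries, close to ZYX in shEphexin1, and was at 59.6, 49.5 and 64.4 FPKM under shControl versus 70.7, 54.5 and 77.3 under shEphexin1 (log2 fold change 0.22, SE 0.163). PARVA, a partner of integrin-linked kinase, was at 4.65, 5.28 and 4.57 FPKM under shControl versus 6.19, 6.36 and 5.64 under shEphexin1 (log2 fold change 0.32, SE 0.131, limma adjusted p = 0.195). The kindlins FERMT1 and FERMT2 had log2 fold changes of -0.28 and 0.13, and FERMT3, TLN2 and PARVB had ones between -0.27 and -0.054. None of these 7 genes passed.

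**Figure D4:**
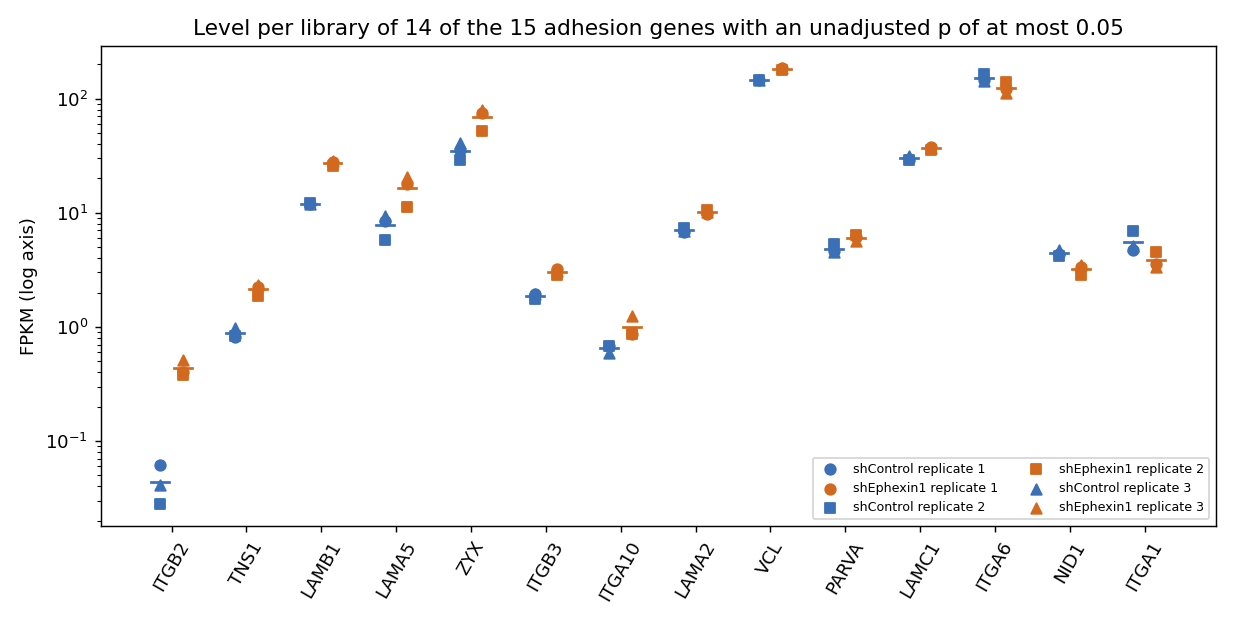
FPKM on a log axis for each library of 14 of the 15 adhesion genes with an unadjusted p of at most 0.05, with the group mean as a bar and 1 marker shape for each replicate number. The groups are separate for all 14 genes drawn. Replicate 2 (squares) is the lowest library of both groups for LAMA5, ZYX, ITGB2, ITGB3, VCL, LAMC1 and NID1. It is the highest of both groups for ITGA1, ITGA6, LAMA2 and PARVA.

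None of the 6 kinases and scaffolds was called, and none had an unadjusted p of at most 0.05. PXN, the scaffold paxillin, was at 78.2, 64.9 and 85.3 FPKM under shControl versus 90.6, 65.5 and 95.6 under shEphexin1 (log2 fold change 0.13, 95% interval -0.28 to 0.54, and -0.018 after GC and length correction). ILK, the pseudokinase that joins beta subunits to parvins, was at 52.8, 43.8 and 58.2 FPKM under shControl versus 57.4, 51.7 and 60.7 under shEphexin1 (log2 fold change 0.14, 95% interval -0.17 to 0.45). PTK2, focal adhesion kinase, had means of 44.6 and 41.1 FPKM (log2 fold change -0.12, 95% interval -0.34 to 0.10). SRC and PTK2B had means of 4.50 and 0.382 FPKM under shControl versus 4.18 and 0.316 under shEphexin1. BCAR1 had a log2 fold change of 0.32 with the widest interval of the 6, -0.36 to 0.99.

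The adhesion genes shared the GC dependence of replicate 2. Over the 46 genes tested, the Spearman correlation between GC content and the mean deviation of replicate 2 was -0.877, a description over genes measured in the same libraries. GC content ran from 33.5% in ITGAV to 66.4% in LAMA5, with a median of 53.7% where all genes tested had 47.9%. Between GC content and log2 fold change the correlation was 0.213. With replicates 1 and 3 alone, 4 of the 46 genes were called (LAMB1, TNS1, ZYX and LAMA5, against 2.68% of all genes), and the groups did not overlap for 35, or without shEphexin1 replicate 2 for 30, where 61.8% and 47.2% of all genes did not. After GC and length correction the number was 31, against 44.5%.

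A further 50 genes of the adhesion machinery were listed as partners, 14 matrix ligands and basement membrane genes and 36 plaque and signalling genes, and 44 of them were tested. LIMS2 rose, TNC fell, and the other 42 were not called (4.55% against 1.89% of all genes). LIMS2 encodes PINCH2, a LIM adaptor of integrin-linked kinase. It was at 0.286, 0.266 and 0.153 FPKM under shControl versus 0.999, 1.16 and 1.15 under shEphexin1 (log2 fold change 1.86, SE 0.252, limma adjusted p = 0.00929), and its call was lost without any one library of replicate 1 or 3 (adjusted p up to 0.0503). TNC encodes tenascin C, a matrix protein that weakens adhesion to fibronectin. It was at 0.625, 0.569 and 0.567 FPKM under shControl versus 0, 0 and 0.0124 under shEphexin1 (limma adjusted p = 0.00323, and 0.0336 without shControl replicate 1). TNC met the filter through the shControl libraries alone, the group where it is high.

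FHL2, CAV1 and TES reached an adjusted p of 0.025 with less than a 2-fold difference. FHL2, a LIM protein that shuttles between adhesions and the nucleus, was at 34.5, 28.2 and 30.3 FPKM under shControl versus 65.0, 51.0 and 62.2 under shEphexin1 (log2 fold change 0.93, SE 0.134, limma adjusted p = 0.0112). CAV1, the coat protein of caveolae, was at 215.3, 222.8 and 207.9 FPKM under shControl versus 341.8, 384.0 and 306.2 under shEphexin1 (log2 fold change 0.67, adjusted p = 0.0178). CAV1 and TES, a LIM partner of zyxin, lie in the same region of chromosome 7. The expressed genes within 10 Mb of them had median log2 fold changes of 0.54 and 0.53. With these subtracted, CAV1 was at 0.14 and TES at 0.073 on the log2 scale, with adjusted p values of 0.369 and 0.754.

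**Figure D5:**
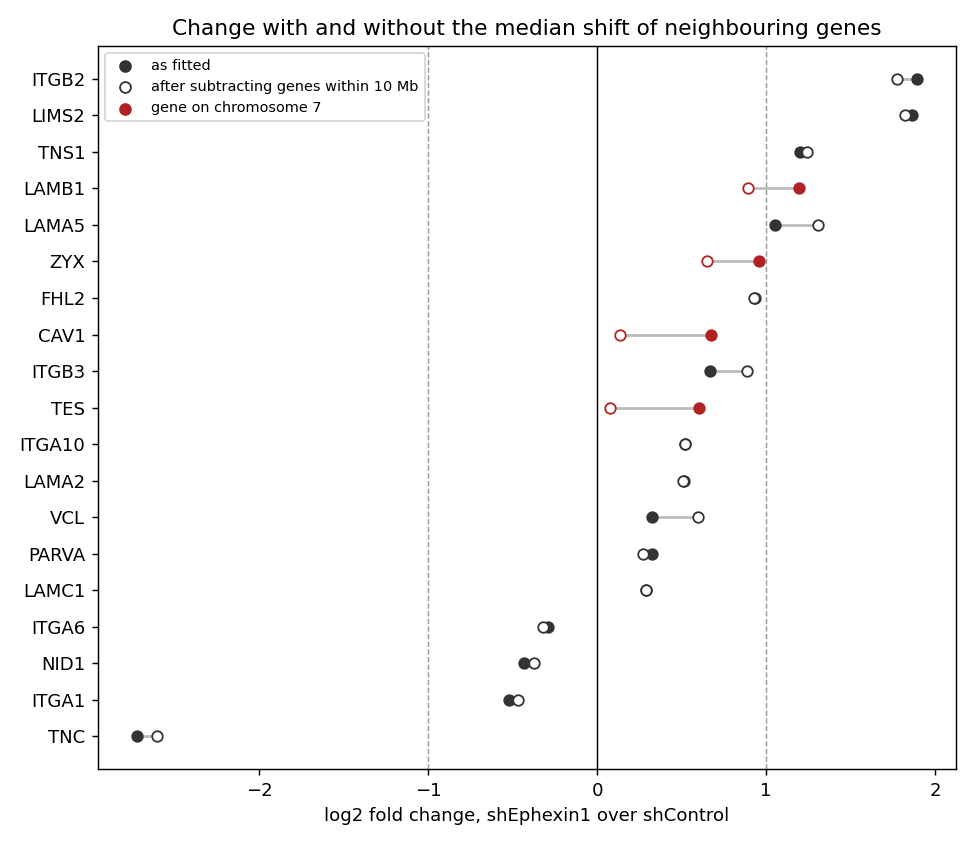
Log2 fold change as fitted (filled) and after the median of expressed genes within 10 Mb was subtracted in each library (open), for 14 of the 15 adhesion genes with an unadjusted p of at most 0.05 and the 5 partner genes that reached an adjusted p of 0.025. Genes on chromosome 7 (red) moved left, CAV1 from 0.67 to 0.14 and LAMB1 from 1.19 to 0.89, while VCL, ITGB3 and LAMA5 moved right.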

How the data were processed

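Total RNA of 3 shControl and 3 shEphexin1 H1299 libraries was sequenced after stranded library preparation. Per the labels and methods, TopHat 2.0.13 was run by the authors against GRCh37/hg19, and they calculated FPKM with Cuffdiff (Cufflinks 2.2.1), using geometric normalization and pooled dispersion. The annotation and the strand setting are not given in the sources used here. All 6 deposited FPKM columns were assigned by their library names. The deposited FPKM come without read counts. Their low values are steps of 1 fragment, from which, with GENCODE 44 transcript lengths, relative depth and fragments per gene were estimated. The steps are less sharp in replicate 2.

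Values were transformed as log2(FPKM + 0.1), after a filter of 0.1 FPKM in 3 libraries, and fitted with limma 3.58.1 (R 4.3.3, eBayes, trended prior variance). Adjusted p values are Benjamini-Hochberg values over 16020 genes. Of these, 15200 have a position, GC content and length from GENCODE 44 on GRCh37. The pipeline was tested on simulated data. Exons of genes on the opposite strand overlap LAMB1, LAMA2, LAMA5, ITGA1, ITGA6, ITGA10, ITGB2, TNS1, ZYX and VCL, and without a known strand setting their fragments cannot be told apart. Genes on the same strand overlap ITGA1 (PELO), ITGB3 and LAMA5, which no strand setting separates.

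The genes, the partner and marker lists and the thresholds were chosen with earlier results of these data known. Genes named with full values are those called, those with an unadjusted p of at most 0.05, and the 2 with the highest mean in each class. Of the partners these are the genes called and those with the smallest p up to 4 genes. Some genes that the rule names are not reported here. TES, NID2, LAMA4, ITGA11 and ITGAM were given values per library after these had been seen. Alternatives were other pseudocounts, filters, scalings, variance models and thresholds, a replicate block, a replicate 2 term, GC and length correction, subtraction of genes within 10 Mb, and each library left out.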

Additional observations from a re-analysis of the deposited data

How the results depend on the processing

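Across 20 alternative fits, between 1 and 4 of the 46 adhesion genes were called, against 3 in the reported fit. With a pseudocount of 1 FPKM the number was 1 (LAMB1) for the adhesion genes and 0 for the partner genes, against 2. With a filter of 1 FPKM no partner gene (0) was called, because TNC and LIMS2 were then not tested. With each library left out in turn, 1 to 4 adhesion genes and 0 to 3 partner genes were called, and groups did not overlap for 20 to 30 adhesion genes. Of all genes, 0.381% to 1.97% were then called, and groups did not overlap for 32.2% to 47.2%. LAMB1 was among those called each time. With no fold threshold, 5 partner genes passed. Groups did not overlap for 35 adhesion genes in replicates 1 and 3 alone and for 31 after GC and length correction, against 19 in the reported values. For all genes the shares were 61.8% and 44.5%, against 28.3%. In the reported fit, same-numbered libraries were not treated as pairs, because the sources name no shared culture or day. The deviations of the replicate 1 libraries correlated by only r = 0.0914, against 0.43 and 0.328 for replicates 2 and 3. The log2 differences within replicate 2 do compare same-numbered libraries, as a description without a test. Every library correlated best with its own number. The replicate block called 4 adhesion genes, where LAMA5 was added, and 556 genes in all against 303. With the block after GC and length correction, 2 adhesion genes were called. PXN had a log2 fold change of -0.018 after GC and length correction, with and without the block. ITGB1 was at -9.23e-05 without shControl replicate 3 and at -0.045 without shEphexin1 replicate 2, the lowest with a library left out, where the highest was 0.13. With quantile normalization ITGB1 was at 0.41. The cause of these differences was not tested. No other gene chosen for full values by the criteria given above changed sign. Other adhesion genes did. ITGA5 went from -0.087 to 0.20 and FERMT1 from -0.28 to 0.10 with the genes within 10 Mb subtracted. Genes with fewer than about 20 estimated fragments in a library, ITGB2 and NID2 among them, are limited by depth.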

Other observations

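Several genes with related names lie outside the list. ITGBL1, which encodes a secreted protein with integrin beta-like repeats, was at 4.73, 5.74 and 6.80 FPKM under shControl versus 9.03, 9.54 and 8.16 under shEphexin1. The groups did not overlap, and the log2 fold change was 0.63 (SE 0.162, limma adjusted p = 0.0619). SRCIN1, which encodes a Src inhibitor, was at 0.163, 0.255 and 0.414 FPKM under shControl versus 0.527, 0.462 and 0.552 under shEphexin1 (adjusted p = 0.197). ITGB1BP1, which encodes ICAP1 and binds the beta1 tail, had a log2 fold change of 0.11 (SE 0.114).

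Antisense genes of 2 of the adhesion genes were also read. LAMA5-AS1 was at 0.290, 0.352 and 0.369 FPKM under shControl versus 1.07, 0.441 and 0.485 under shEphexin1 (limma adjusted p = 0.258). ITGB2-AS1 was under the filter, at 0, 0 and 0.0468 FPKM under shControl versus 0.209, 0 and 0.163 under shEphexin1. Both were chosen after the values had been seen.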
